A study of Homo sapiens with 6 samples.

Results

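The genes described here are 54 genes of DNA replication and of the passage from G1 into S phase, chosen by name from 19330 genes in a table of RNA-Seq counts. They cover origin recognition and licensing, the MCM2-7 helicase and its activators, the replicative polymerases with their clamp, the synthesis of deoxynucleotides, E2F factors with cyclin E, maintenance methylation and chromatin assembly. All 54 passed the filter on low counts and stood among the 8324 genes tested. The cells were K562, an established human chronic myelogenous leukemia line, in which 3 libraries (sgCtrl) came from cells transduced with control sgRNAs and 3 (sgN6AMT1) from cells transduced with sgRNAs against N6AMT1. N6AMT1 is a methyltransferase that has been linked to histone H4 and to cell cycle genes, and the comparison asks how transcripts of the replication program stood after its depletion. Both groups carried Cas9 on a lentiviral vector, were selected with puromycin for 48 h and were analysed on day 10. The labels name OR11A1 and OR2M49 as control targets and the methods name EGFP or OR11A1 and OR2M4. Each library had its own transduction, and no clone is named in the sources used here. Replicate spread is therefore spread between transductions of 1 cell line, and the p-values rest on it. The methods name more than 1 sgRNA against N6AMT1. Which guide each library received is not stated here, so part of that spread may lie between guides.

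DNA replication begins when the origin recognition complex, with CDC6 and CDT1, loads the MCM2-7 helicase onto DNA in G1. Entry into S phase fires those origins: CDC45 and the GINS complex join the helicase, primase and the polymerases copy each strand on the PCNA clamp, and histones, nucleotides and methyl marks are supplied to the new DNA. Many of these genes are activated together by E2F factors once cyclin E and its kinase release them from the retinoblastoma protein, and E2F8 is a late member of the family that represses the same program.

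Total counts were 742470 to 866894 in the sgCtrl libraries and 959319, 5526904 and 4062363 in sgN6AMT1 replicates 1, 2 and 3. Every sgN6AMT1 library was thus deeper than every sgCtrl library, replicate 1 by the least, so depth moved with the condition. The targeted gene N6AMT1 was counted 6, 5 and 9 times in sgCtrl against 0, 18 and 16 times in sgN6AMT1, or 8.08 ± 2.31 against 2.40 ± 2.10 cpm (SD, n = 3 each), and the groups did not overlap (two-sided exact permutation p = 0.1, the smallest that 3 against 3 allows). All 10 K562 markers checked were expressed. Of 10 markers of other lineages, MS4A1 and KRT5 had 0 counts in every library, 8 failed the filter on low counts, and the 10 summed to 172 to 197 normalized cpm in sgCtrl and 124 to 179 in sgN6AMT1, most of it EPCAM.

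Most of the replication program did not pass the test, and the members that did were all lower after N6AMT1 depletion. TYMS, UHRF1, E2F8, CCNE1 and CHAF1B fell, at an adjusted p under 0.05 with edgeR's quasi-likelihood test and Benjamini-Hochberg adjustment over all genes tested. The 41 genes of origin recognition, licensing, helicase, polymerases, clamp, RPA and Okazaki fragment maturation held none of the 5. In bulk RNA, fewer cells in S phase and less of a transcript per cell cannot be told apart. All 5 belonged to the remaining 13 genes, those of maintenance methylation, nucleotide synthesis, E2F and cyclin E, and chromatin assembly. This split of the roles was drawn after the values were seen, and whether the sets differ was not tested. Of all genes tested, 9.85% were called and 4.76% were called lower.

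Read against the whole table, the number called was near the background. Of the 54 members, 5 (9.26%) passed the test, where 9.85% of all genes tested did. Lower calls made up 9.26% of the members against 4.76% of all genes, and higher calls 0 of 54 against 5.09%. At an unadjusted p under 0.05 there were 15 members (27.8%, against 26.2% of all genes), of which 11 had a negative and 4 a positive log2 fold change. DESeq2 called the same 5 members lower and 0 higher, where it called 337 of 9396 genes lower and 293 higher (6.70% in all). In 15 members (27.8%) the 3 libraries of one condition all stood above the 3 of the other, against 29.2% of all genes. In 12 of these the sgN6AMT1 libraries were the lower ones (22.2% of members, against 14.1% of all genes), and in 3, MCM3, POLD1 and LIG1, the higher ones (5.56% against 15.1%). The median log2 fold change (sgN6AMT1 minus sgCtrl throughout) was -0.06 over the members and 0.01 over all genes tested, with 23 members above 0 and 31 below. With RLE size factors, with total counts or with DESeq2 these became 22 and 32, since RFC3, close to 0, changed sign.

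**Figure D1:**
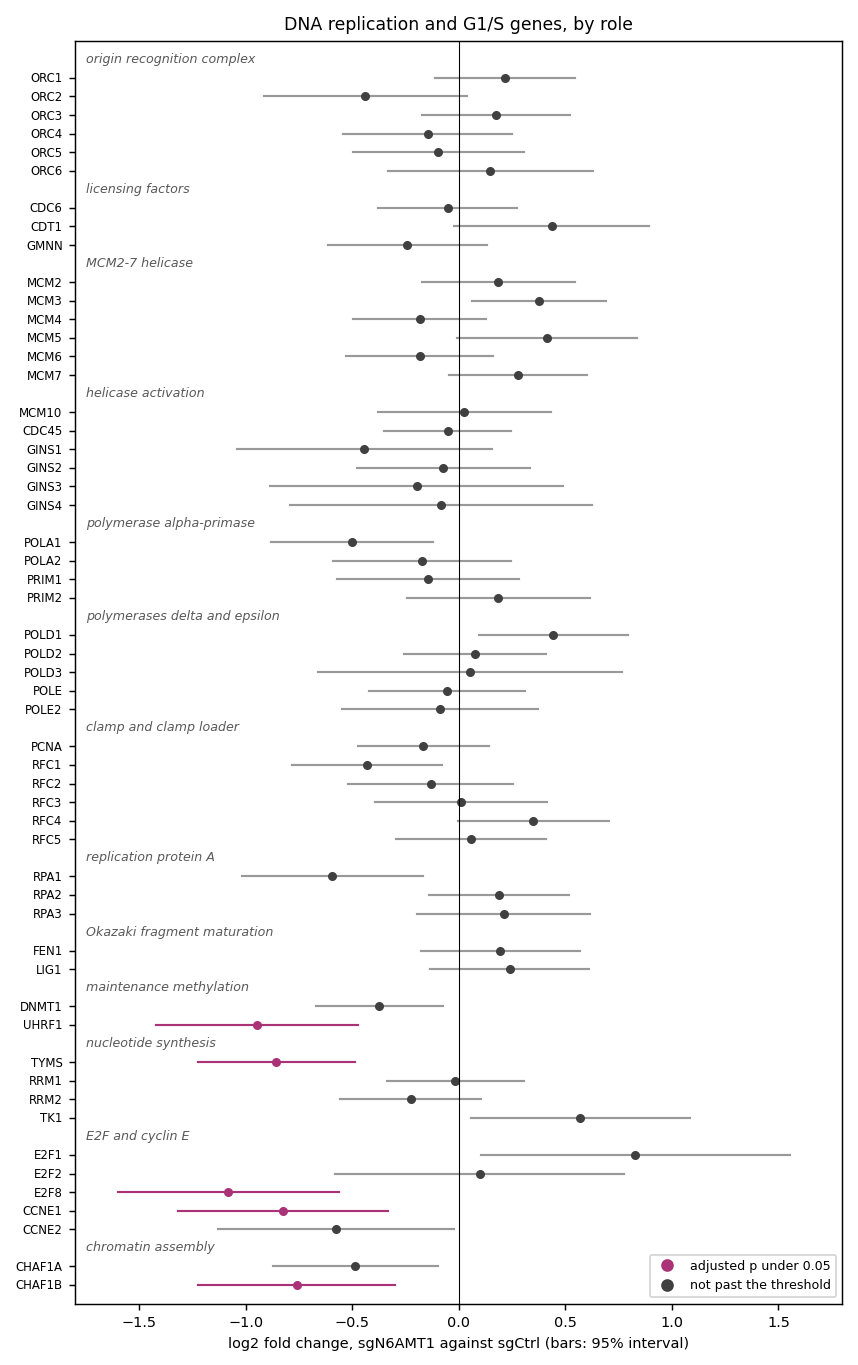
Log2 fold change of each of the 54 members (horizontal axis, sgN6AMT1 against sgCtrl, n = 3 libraries each), grouped by role; points are edgeR estimates, bars 95% intervals, and coloured points have an adjusted p under 0.05. The 5 coloured genes, UHRF1, TYMS, E2F8, CCNE1 and CHAF1B, lie left of 0, and 39 of the 54 intervals cover 0.

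The precision of the data bounds what the remaining members could have done. In 39 of the 49 members not called the 95% interval of the log2 fold change covered 0. In 44 of the 49 it lay within -1 and 1, so that a change of 2 times in either direction was outside it. For the 41 genes of licensing and the fork, 39 intervals lay within those bounds, the median was -0.05, 20 genes were above 0 and 21 below, and 5 had an unadjusted p under 0.05. For the other 13 genes the median was -0.49, with 3 above 0 and 10 below, and 10 had an unadjusted p under 0.05. Of all genes tested, 26.2% had an unadjusted p under 0.05. This split was drawn after the values were seen, so its counts depend on how it was drawn, and whether the sets differ was not tested.

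The members together took a small and even share of the libraries. They held 0.779%, 0.788% and 0.770% of all counts in sgCtrl and 0.737%, 0.754% and 0.765% in sgN6AMT1 (means 0.779 ± 0.00896% and 0.752 ± 0.0144%, SD, n = 3 each). The sgN6AMT1 shares all lay below the sgCtrl shares, with a ratio of the means of 0.965. On the scale normalized by TMM the sums overlapped and the ratio was 0.980.

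Levels per kb of transcript (normalized cpm divided by the length of the GENCODE canonical transcript) spread the members over a wide range in sgCtrl. PCNA, the sliding clamp, was highest at 336 ± 28.3 per kb (SD, n = 3), followed by MCM7 at 258 ± 14.9 and CDC45 at 238 ± 18.7. PCNA did not overlap with MCM7 and MCM7 overlapped with CDC45. POLD2 at 156 ± 27.3 and TYMS at 132 ± 18.7 came next and overlapped with each other. The lowest were E2F2 at 3.40 ± 0.710, GINS4 at 4.85 ± 2.00 and E2F1 at 6.67 ± 3.54, whose ranges overlapped. Of the genes that fell, TYMS was the fifth of 54, and UHRF1, CCNE1, CHAF1B and E2F8 stood at 32.5, 31.3, 14.6 and 11.6 per kb, in the lower part of the order.

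The promoter sequences show how many of these genes carry E2F words. In RefSeq windows (GRCh38.p14) from 250 bases before to 50 bases after each start site, the letters TTTGGCGC, TTTCCCGC, TTTGCCGC or TTTCGCGC, on either strand, occurred in 24 of 59 windows of the members (40.7%). They occurred in 3.31% of all 35116 windows and in 5.58% of the windows of tested genes. None of these words contains the next pair of motifs. CCAAT was present in 55.9% of the members' windows against 34.6% of all, and TTTGAA, the CHR element of late cell cycle genes, in 1.69% against 15.2%. In the windows of tested genes these shares were 35.8% for CCAAT and 10.6% for TTTGAA. An entry was found for 46 members, and RPA2, CCNE2, MCM5, RPA3, E2F8, GINS4, MCM4 and POLD3 have none in the table used. The 23 genes with an E2F word had a median log2 fold change of -0.07, with 9 above 0, 14 below and 2 called. The 23 without had a median of -0.05, with 10 above 0, 13 below and 2 called.

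The 120 bases before the start are shown for the 4 members that fell and have an entry, and for PCNA and E2F1, which carry words and did not pass the test. Capitals mark E2F words and all sequences read 5′ to 3′ on the strand of the gene. TYMS lies at chr18:657533-657652 (+), UHRF1 at chr19:4909381-4909500 (+, 1 of 3 windows), CCNE1 at chr19:29811871-29811990 (+) and CHAF1B at chr21:36385272-36385391 (+). PCNA lies at chr20:5126623-5126742 (-, 1 of 2 windows) and E2F1 at chr20:33686386-33686505 (-). The start site used for UHRF1 lies inside the GENCODE gene and not at its outer edge.
TYMS: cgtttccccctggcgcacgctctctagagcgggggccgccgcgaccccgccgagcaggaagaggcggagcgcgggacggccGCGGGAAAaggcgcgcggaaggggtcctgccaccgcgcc
UHRF1: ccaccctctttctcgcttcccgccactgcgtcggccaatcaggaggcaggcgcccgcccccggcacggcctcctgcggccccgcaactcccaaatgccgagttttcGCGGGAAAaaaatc
CCNE1: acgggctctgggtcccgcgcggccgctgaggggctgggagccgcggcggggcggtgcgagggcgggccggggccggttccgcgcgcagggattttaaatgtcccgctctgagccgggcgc
CHAF1B: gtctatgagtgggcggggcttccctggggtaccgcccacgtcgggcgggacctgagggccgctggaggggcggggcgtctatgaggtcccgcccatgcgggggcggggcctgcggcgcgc
PCNA: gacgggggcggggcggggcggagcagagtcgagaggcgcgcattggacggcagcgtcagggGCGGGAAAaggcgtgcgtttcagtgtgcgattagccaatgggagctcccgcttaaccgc
E2F1: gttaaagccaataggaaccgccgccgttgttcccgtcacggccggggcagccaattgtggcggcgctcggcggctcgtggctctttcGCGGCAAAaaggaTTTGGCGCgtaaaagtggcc
TYMS, UHRF1 and PCNA share the word GCGGGAAA, which starts 39, 14 and 59 bases before the start site, and E2F1 holds GCGGCAAA and TTTGGCGC at 33 and 20 bases. CCNE1 and CHAF1B hold none of the words in these letters.

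TYMS, thymidylate synthase, makes dTMP for DNA synthesis and had the smallest adjusted p of the members. Its normalized level was 239, 222 and 180 cpm in sgCtrl and 135, 130 and 92.3 cpm in sgN6AMT1. The lowest sgCtrl library stood above the highest sgN6AMT1 library. TYMS fell by 0.86 on the log2 scale (SE 0.18, adjusted p = 0.00642 with edgeR), so that its level fell by 44.8%. It was called with each library left out in turn, with log2 fold changes from -0.97 to -0.69. TYMS has 2 annotated pseudogenes. Opposite to TYMS runs ENOSF1, which shares 39.9% of the exon bases of TYMS, and whether the counts were made by strand is not given in the sources used here. ENOSF1 had 25.5 ± 10.8 cpm in sgCtrl and 31.1 ± 2.73 cpm in sgN6AMT1 (SD, n = 3 each, log2 fold change 0.27, adjusted p = 0.613 with edgeR).

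The other enzymes of deoxynucleotide supply did not follow TYMS past the test. TK1, thymidine kinase of the salvage route to dTMP, had 65.8, 54.2 and 76.6 cpm in sgCtrl and 53.7, 105 and 122 cpm in sgN6AMT1, with replicate 1 of sgN6AMT1 below every sgCtrl library and the other 2 above them. Its log2 fold change was 0.57 (SE 0.25, adjusted p = 0.146 with edgeR), and without sgN6AMT1 replicate 1 it was called higher (0.79, adjusted p = 0.0164). After correction for GC content and transcript length over all 6 libraries it was 0.32 (adjusted p = 0.352 with edgeR). RRM1 and RRM2, the subunits of ribonucleotide reductase, had log2 fold changes of -0.02 and -0.23, with intervals of -0.34 to 0.30 and -0.56 to 0.11. Both intervals thus exclude the estimate of -0.86 for TYMS. The interval of TYMS, -1.23 to -0.49, overlaps that of RRM2 and not that of RRM1.

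UHRF1 recognises hemimethylated DNA behind the fork and brings in DNMT1, the maintenance methyltransferase. UHRF1 had 146, 144 and 89.6 cpm in sgCtrl and 66.4, 82.7 and 47.3 cpm in sgN6AMT1. The groups did not overlap, although sgCtrl replicate 3 stood close to sgN6AMT1 replicate 2. UHRF1 fell by 0.95 on the log2 scale (SE 0.23, adjusted p = 0.0141 with edgeR). The call was lost without sgCtrl replicate 1 (-0.84, adjusted p = 0.0743) or replicate 2 (-0.85, adjusted p = 0.101).

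DNMT1 lay lower in every sgN6AMT1 library but by less. It had 312, 320 and 271 cpm in sgCtrl and 224, 239 and 231 cpm in sgN6AMT1, with no overlap. Its log2 fold change was -0.37 (SE 0.14, adjusted p = 0.101 with edgeR), short of the threshold, and it was called after correction for GC content and transcript length (adjusted p = 0.0259).

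E2F8, the repressor of the family, had the most negative log2 fold change of the 54. Its level was 47.0, 42.7 and 38.9 cpm in sgCtrl and 17.9, 21.2 and 20.3 cpm in sgN6AMT1. The 3 sgN6AMT1 libraries were close together and far below the lowest sgCtrl library. E2F8 fell by 1.08 on the log2 scale (SE 0.25, adjusted p = 0.0118 with edgeR), so that its level fell by 52.8%. With 33 to 37 counts in each sgCtrl library, its call was lost without sgCtrl replicate 1 (-1.02, adjusted p = 0.0554) or replicate 2 (-1.09, adjusted p = 0.0558).

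E2F1, an activator of S-phase genes, had the most positive log2 fold change of the members, at low counts. It had 28.2, 16.2 and 9.43 cpm in sgCtrl and 24.2, 27.0 and 40.4 cpm in sgN6AMT1, from as few as 8 counts in sgCtrl replicate 3. The groups overlapped, and the log2 fold change of 0.83 (SE 0.35) had an adjusted p of 0.134 with edgeR. E2F2, another activator, had a log2 fold change of 0.10 with an interval of -0.58 to 0.78.

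Cyclin E drives entry into S phase with CDK2 and is made from CCNE1 and CCNE2. CCNE1 had 61.8, 47.3 and 74.3 cpm in sgCtrl and 26.3, 33.2 and 40.6 cpm in sgN6AMT1. The groups did not overlap, and the sgCtrl libraries were spread more widely. CCNE1 fell by 0.82 on the log2 scale (SE 0.24, adjusted p = 0.0338 with edgeR). The adjusted p was 0.0939 without sgCtrl replicate 1, 0.126 without sgCtrl replicate 3, 0.0573 without sgN6AMT1 replicate 1, 0.0972 without sgN6AMT1 replicate 2 and 0.0550 with all libraries thinned to the depth of the shallowest. CCNE2 stood lower in every sgN6AMT1 library, with a log2 fold change of -0.58 (SE 0.26, adjusted p = 0.170 with edgeR). CCNE2 shares 37.0% of its exon bases with INTS8 on the opposite strand, whose log2 fold change was -0.05.

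CHAF1A and CHAF1B are subunits of chromatin assembly factor 1, which deposits histones H3 and H4 on new DNA at PCNA. CHAF1B had 67.2, 53.1 and 75.4 cpm in sgCtrl and 29.5, 42.2 and 39.8 cpm in sgN6AMT1, without overlap. CHAF1B fell by 0.76 on the log2 scale (SE 0.22, adjusted p = 0.0359 with edgeR). With 1 library left out it was called in 1 of 6 fits, the fewest of the 5 members: the adjusted p was 0.102, 0.0604 and 0.113 without sgCtrl replicates 1, 2 and 3, and 0.0666 and 0.0611 without sgN6AMT1 replicates 1 and 2.

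CHAF1B is the only member on chromosome 21, which also holds N6AMT1 (chr21:28872191-28885371, GRCh38). The 83 tested genes of chromosome 21 had a median log2 fold change of -0.26, with 64 below 0, 11 called lower and 0 called higher. Of all 8324 genes tested, 4096 were below 0, 4.76% were called lower and 5.09% higher. The medians of the other 22 chromosomes ranged from -0.11 to 0.14. Per library, the median over the chromosome 21 genes relative to the sgCtrl mean was -0.02, 0.01 and 0.04 in sgCtrl and -0.32, -0.25 and -0.23 in sgN6AMT1. The part of the whole chromosome in the lower level of CHAF1B was not tested.

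CHAF1A had 146, 150 and 113 cpm in sgCtrl and 111, 108 and 76.6 cpm in sgN6AMT1, again without overlap. The log2 fold change was -0.49 (SE 0.19, adjusted p = 0.103 with edgeR). CHAF1A was called after the GC content and length correction (adjusted p = 0.0406).

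**Figure D2:**
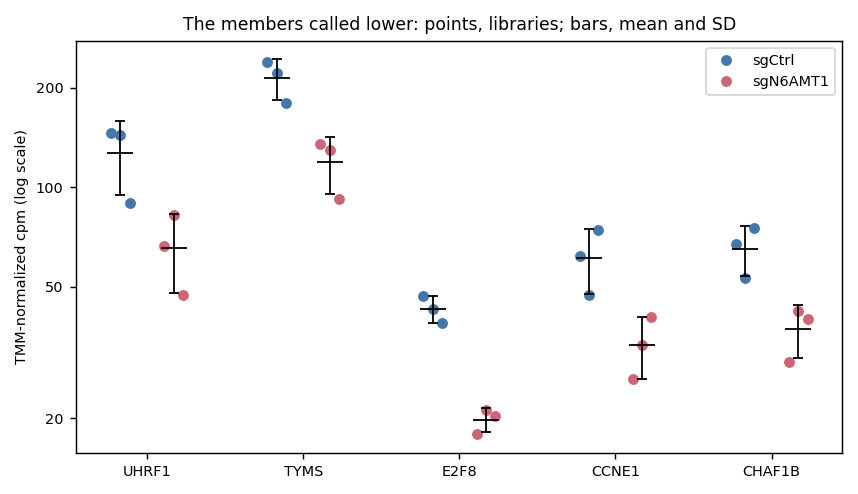
TMM-normalized cpm (vertical log axis) of the 5 members that fell, with 1 point for each library, a horizontal bar at the mean and error bars of 1 SD (n = 3 each). In each gene the 3 sgN6AMT1 libraries lie below the 3 sgCtrl libraries, by the widest gap in E2F8.

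The origin recognition complex marks the sites where replication can start, and none of its 6 genes passed the test. Their log2 fold changes ran from -0.44 to 0.22 with a median of 0.03, 3 above 0 and 3 below. ORC1, the subunit that varies with the cell cycle, was at 142, 153 and 172 cpm in sgCtrl and 164, 173 and 205 cpm in sgN6AMT1 (adjusted p = 0.408 with edgeR). ORC2 was at 47.0, 72.7 and 58.9 cpm against 32.7, 47.8 and 47.6 cpm (adjusted p = 0.231). Both overlapped between the groups, and all 6 intervals lay within -1 and 1.

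CDC6 and CDT1 load the helicase and geminin (GMNN) inhibits CDT1 after origins have fired. CDT1 had 108, 56.5 and 58.9 cpm in sgCtrl and 90.6, 108 and 98.5 cpm in sgN6AMT1, so that a single sgCtrl library stood with the sgN6AMT1 libraries. Its log2 fold change was 0.44 (SE 0.22, adjusted p = 0.213 with edgeR). GMNN had 105, 164 and 151 cpm against 126, 123 and 108 cpm (log2 fold change -0.24, adjusted p = 0.414). CDC6 was nearest to 0, at -0.05 with an interval of -0.38 to 0.27.

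The 6 subunits of the MCM2-7 ring are used in equal numbers in the helicase, and none of their transcripts passed the test. MCM2, MCM3, MCM5 and MCM7 had log2 fold changes of 0.19, 0.38, 0.41 and 0.28, and MCM4 and MCM6 both of -0.18, with a median of 0.23. MCM5 had 157, 156 and 140 cpm in sgCtrl and 135, 187 and 271 cpm in sgN6AMT1. Replicate 1 of sgN6AMT1 was the lowest of the 6 libraries and replicate 3 the highest (SE 0.20, adjusted p = 0.202 with edgeR). Without sgN6AMT1 replicate 1 MCM5 was called higher (0.60, adjusted p = 0.0411 with edgeR). With all 6 libraries and the GC content and length correction MCM5 was at 0.28 (adjusted p = 0.328 with edgeR).

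MCM3 was the MCM gene whose groups did not overlap, at 289, 305 and 343 cpm in sgCtrl and 371, 372 and 471 cpm in sgN6AMT1 (SE 0.15, adjusted p = 0.117 with edgeR). MCM4, the lowest by fold change, had 499, 509 and 388 cpm against 395, 444 and 386 cpm (adjusted p = 0.463). Summed over the ring, sgN6AMT1 replicates 1, 2 and 3 reached 1989.5, 2210 and 2509 cpm, against 1891 to 2110 in sgCtrl, so the higher median rested on replicates 2 and 3. The median of the 6 was 0.08 after the GC content and length correction and -0.06 in sgN6AMT1 replicate 1 alone.

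CDC45, the GINS complex and MCM10 turn the loaded ring into an active helicase. The 6 genes had a median log2 fold change of -0.08, 1 above 0 and 5 below, with none called. GINS1 was the lowest and did not overlap between the groups, at 25.5, 23.1 and 25.9 cpm in sgCtrl and 16.9, 16.8 and 20.6 cpm in sgN6AMT1. With so few counts its log2 fold change of -0.44 had an interval of -1.04 to 0.15 (adjusted p = 0.342 with edgeR). MCM10 was the highest, at 95.4, 78.5 and 100.2 cpm against 119, 81.6 and 85.1 cpm (log2 fold change 0.03). CDC45, among the most abundant members, differed by -0.05, with an interval of -0.35 to 0.25.

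Polymerase alpha and primase start each strand with a short primer. POLA1, the catalytic subunit, had 88.7, 132 and 116 cpm in sgCtrl and 86.4, 77.6 and 75.8 cpm in sgN6AMT1. Every sgN6AMT1 library lay below every sgCtrl library, the nearest pair by little, and the log2 fold change was -0.50 (SE 0.18, adjusted p = 0.0848 with edgeR). PRIM2 had 57.8, 55.4 and 61.3 cpm against 50.6, 75.9 and 66.8 cpm (log2 fold change 0.19, adjusted p = 0.614). POLA2 and PRIM1 were at -0.17 and -0.15.

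Polymerase delta copies the lagging strand and polymerase epsilon the leading strand. POLD1, the catalytic subunit of delta, was at 156, 123 and 144 cpm in sgCtrl and 162, 184 and 224 cpm in sgN6AMT1. The groups did not overlap and the log2 fold change was 0.44 (SE 0.17, adjusted p = 0.0984 with edgeR). POLE, the catalytic subunit of epsilon, differed by -0.05, and POLE2 had 53.8, 90.0 and 53.1 cpm against 67.4, 56.6 and 63.8 cpm (log2 fold change -0.09, adjusted p = 0.843). POLD2 and POLD3 were at 0.08 and 0.05, the latter with the wide interval of -0.66 to 0.76.

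The PCNA clamp is loaded by the RFC complex. PCNA differed by -0.17, with an interval of -0.47 to 0.14, and 3 annotated pseudogenes carry its name, with reads that match both counted in a way not given in the sources used here. RFC1, the large subunit, had 157, 233 and 172 cpm in sgCtrl and 153, 136 and 131 cpm in sgN6AMT1, without overlap (log2 fold change -0.43, SE 0.17, adjusted p = 0.110 with edgeR). RFC4, a small subunit, had 118, 136 and 183 cpm against 193, 178 and 189 cpm, with an overlap of the highest sgCtrl library (log2 fold change 0.35, adjusted p = 0.197). RFC2, RFC3 and RFC5 lay between -0.13 and 0.06.

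Replication protein A coats single-stranded DNA as a complex of 3 subunits. RPA1, the largest, was at 101, 106 and 86.1 cpm in sgCtrl and 66.4, 78.5 and 49.1 cpm in sgN6AMT1. The groups did not overlap, and with a log2 fold change of -0.59 (SE 0.20) RPA1 stood next below the threshold, at an adjusted p of 0.0694 with edgeR. It was called lower without sgN6AMT1 replicate 2 (adjusted p = 0.0498) and with no filter on low counts (adjusted p = 0.0405). RPA3 had 83.3, 65.8 and 114 cpm against 99.1, 103 and 102 cpm (log2 fold change 0.21, adjusted p = 0.534), and RPA2 differed by 0.19. RPA2 and RPA3 have 3 and 2 annotated pseudogenes.

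FEN1 trims the flaps of Okazaki fragments and LIG1 seals them. LIG1 had 65.8, 79.6 and 74.3 cpm in sgCtrl and 86.4, 89.1 and 84.1 cpm in sgN6AMT1, without overlap (log2 fold change 0.24, SE 0.18, adjusted p = 0.425 with edgeR). FEN1 had 94.1, 108 and 93.1 cpm against 91.7, 111 and 132 cpm (log2 fold change 0.19, adjusted p = 0.531).

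**Figure D3:**
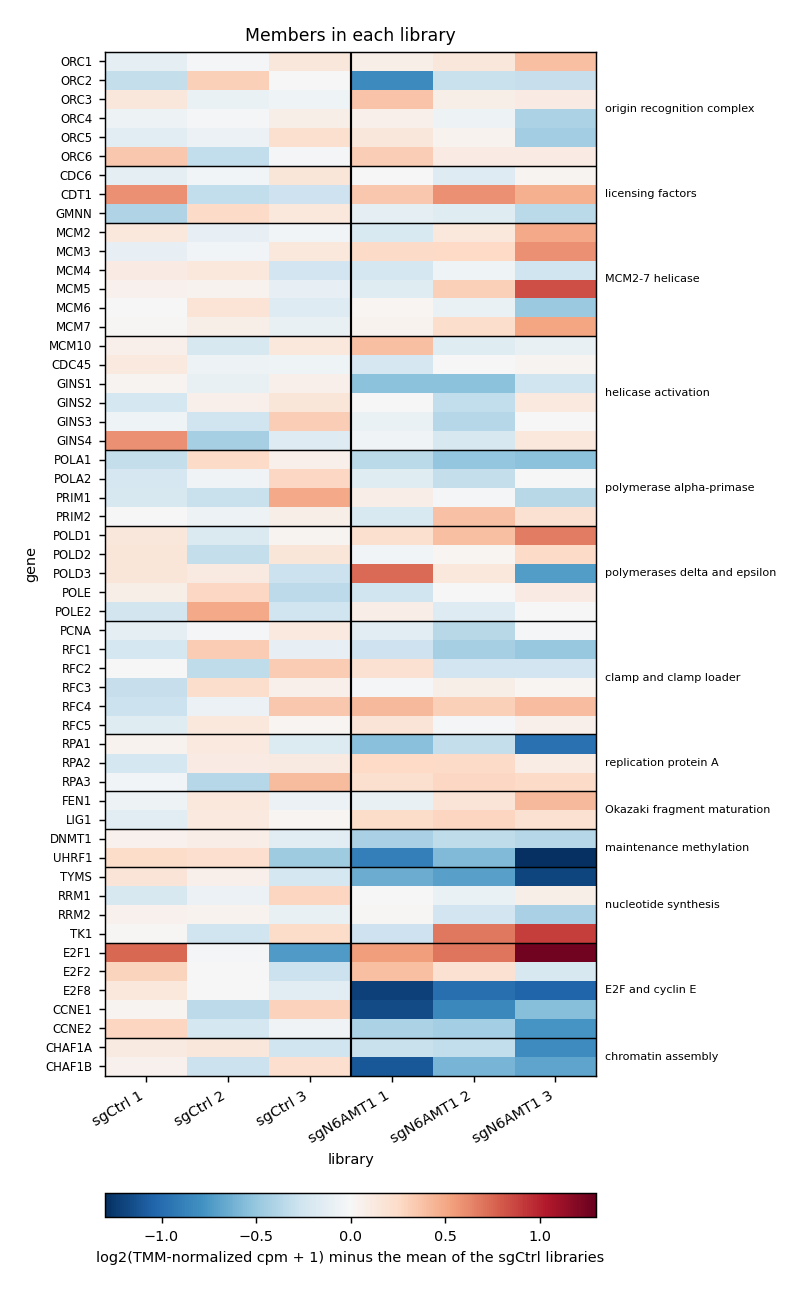
Each member (rows, grouped by role) in each of the 6 libraries (columns), as log2(TMM-normalized cpm + 1) less the sgCtrl mean; blue is lower and red is higher. UHRF1, TYMS, E2F8, CCNE1 and CHAF1B are blue in all 3 sgN6AMT1 libraries, and MCM5 and TK1 differ between sgN6AMT1 replicate 1 and the other 2.

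**Figure D4:**
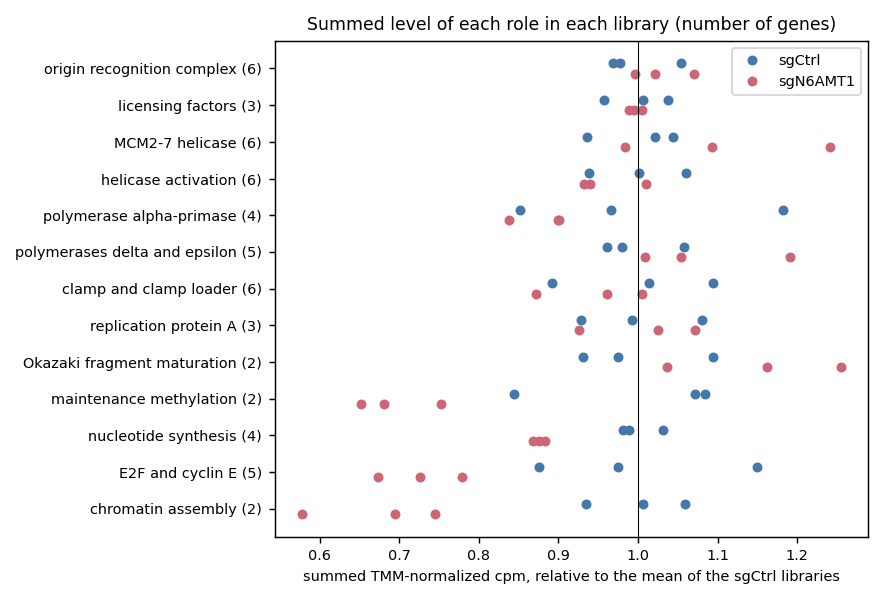
Summed TMM-normalized cpm of each role (rows, with its number of genes) in each library, divided by the mean over sgCtrl (horizontal axis, where 1 is that mean). The sgN6AMT1 libraries lie below all sgCtrl libraries for maintenance methylation, nucleotide synthesis, E2F and cyclin E, and chromatin assembly and overlap with them in the other 9 roles. In nucleotide synthesis the mean sum went from 776 cpm in sgCtrl to 680 cpm in sgN6AMT1, and TYMS alone from 214 to 119 cpm. RRM1 and RRM2 had a lower mean and TK1 a higher one.

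Other genes of the same pathways were read from 4 lists of further replisome and fork genes, G1/S control genes, nucleotide and S-phase chromatin genes, and the replication checkpoint. Of 84 listed genes, 75 were tested, with a median log2 fold change of -0.12, 28 above 0 and 47 below. TOP1, LIN9, MYC and RRM2B were not analysed here. Of the 75, 4 were called lower and 1 higher, or 6.67% in all, where 9.85% of all genes tested were called. The lower calls made up 5.33% against 4.76% of all genes, so these counts did not stand out. All 5 calls were lost without sgCtrl replicate 1, and all 5 without sgCtrl replicate 2.

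RB1, the retinoblastoma protein that restrains E2F, fell from 91.4, 81.9 and 90.8 cpm to 55.8, 51.3 and 49.9 cpm (log2 fold change -0.76, adjusted p = 0.0152 with edgeR). NASP and HELLS, a histone chaperone and a chromatin remodeller, fell by 0.63 and 0.72 on the log2 scale (adjusted p = 0.0460 and 0.0490). DONSON, a factor of helicase assembly that also lies on chromosome 21, fell by 0.54 (adjusted p = 0.0478). POLD4, the small accessory subunit of polymerase delta, rose by 1.98, from 1, 4 and 3 counts in sgCtrl to 11, 67 and 56 counts in the deeper sgN6AMT1 libraries (1.34, 4.61 and 3.54 against 11.6, 12.2 and 14.4 cpm, adjusted p = 0.0160). With each library left out in turn, RB1 was called in 3 of 6 fits, NASP in 2, DONSON in 1 and HELLS in 0, and POLD4 in 2 of the 4 fits in which it passed the filter on low counts. The highest adjusted p of these fits was 0.0603 for RB1, 0.204 for NASP, 0.180 for DONSON, 0.157 for HELLS and 0.0862 for POLD4. DESeq2 called RB1 and NASP, and after thinning to the shallowest library NASP was called. None of the 10 checkpoint genes was called with edgeR, where 9.85% of all genes tested were. An unadjusted p under 0.05 was found for 2 of the 10, against 26.2% of all genes tested, so these counts did not stand out.

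Across the 18 alternative analyses the 5 members that fell kept a negative log2 fold change, and their calls differed in strength. TYMS was called in 17 of the 18, E2F8 and UHRF1 in 15 each, and CCNE1 and CHAF1B in 12 each. The number of members called was 1 without sgCtrl replicate 1, 2 without sgCtrl replicate 2 and 3 without sgCtrl replicate 3. Set alone against sgCtrl, sgN6AMT1 replicate 1, the library of like depth to the controls, gave log2 fold changes from -1.24 to -0.65 for the 5. That fit called 0 of the 54 members and 122 of 8814 genes, but its spread came from the 3 sgCtrl libraries and the lone library was assumed to vary like them, so the count of 0 says little about the calls.

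**Figure D5:**
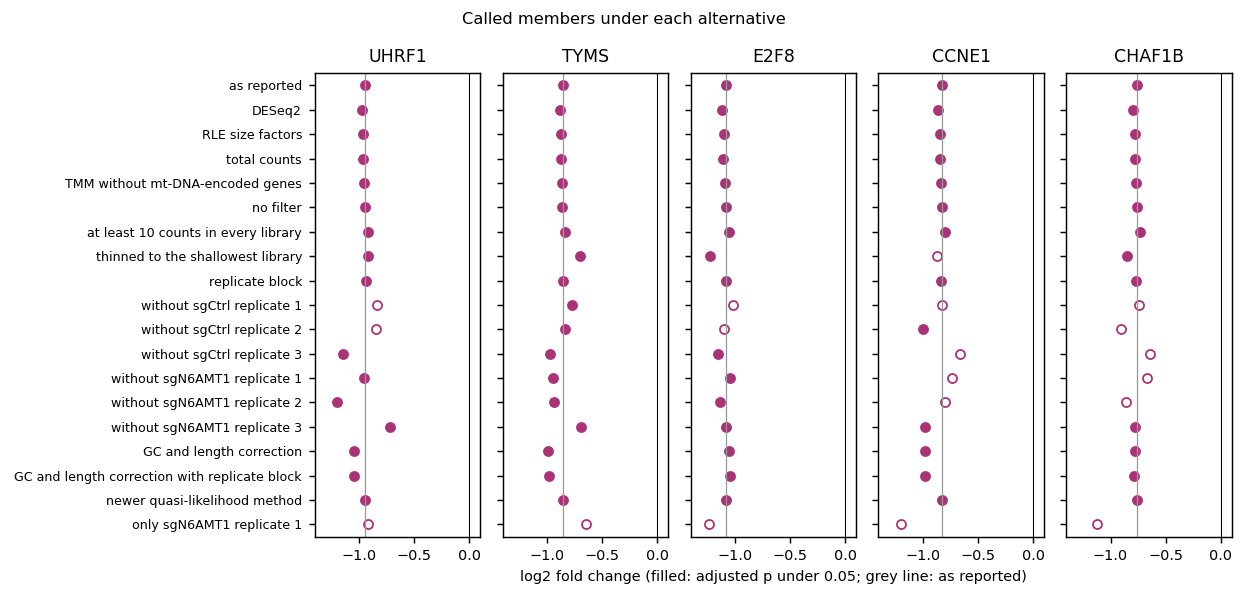
Log2 fold change (horizontal axes) of the 5 members that fell, as reported and under each of the 18 alternatives (rows); filled points have an adjusted p under 0.05 and the grey line marks the value as reported. All points lie left of 0, and open points gather in the rows that leave out a library.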

How the data were processed

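RNA-Seq counts of 3 sgCtrl and 3 sgN6AMT1 libraries of K562 cells were analysed, grouped by their labels. The authors sequenced 60 nt single-end reads from rRNA-depleted RNA (the labels say polyA RNA), trimmed them with cutadapt (minimum length 15, quality cutoff 2), mapped them with HISAT2 to GRCh38 and deposited raw counts per gene of annotation release 84, without normalization. The counting tool and its handling of strand and shared reads are not given in the sources used here.

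From the deposited counts, genes were filtered with filterByExpr, normalized by TMM and tested over the 6 libraries without covariates by the quasi-likelihood test of edgeR 4.0.16 (glmQLFit, glmQLFTest; R 4.3.3), with Benjamini-Hochberg adjustment over 8324 genes. Calls are at an adjusted p under 0.05. Standard errors are the log2 fold change divided by the root of F. Normalized cpm are TMM-normalized, and lengths are of GENCODE v44 canonical transcripts. DESeq2 1.42.0, other scalings and filters, thinning to 742470 counts, a replicate block and each library left out were the alternatives. Correction for GC content and length (values for 98.0% of tested genes), the newer quasi-likelihood method and the fit of sgN6AMT1 replicate 1 alone were added after seeing the data. The fit was tested on simulated counts of sgN6AMT1 against sgCtrl (8279 genes in the fit), in which a log2 change of 2 was recovered in 53 of 53 genes, a log2 change of 1 in 49 of 66, and 4 of 8160 unchanged genes were called. Every simulated gene had the same dispersion, and only genes that passed the filter were counted. These rates therefore need not hold for the real counts.

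The members and the gene lists were chosen with earlier results of these data known. Values in every library are given for the members called and for the highest and lowest log2 fold change of each role, and for a few more with no overlap between groups.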

Additional observations from a re-analysis of the deposited data

How the results depend on the processing

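TYMS, E2F8, UHRF1, CCNE1 and CHAF1B kept a negative log2 fold change in all 18 alternatives. Of the 54 members, 5 were called as reported, 1 to 5 with a library left out, 8 with GC content and length correction and the replicate block, 0 with sgN6AMT1 replicate 1 alone (spread from sgCtrl only), 1 at an adjusted p under 0.01 and 8 under 0.1. Over all genes these were 820 as reported, 220 to 951 with a library left out, and 1326, 122, 214 and 1346. Of the other genes of the pathways, 5 were called as reported, 2 with DESeq2, 10 without a filter, 3 with at least 10 counts in every library, 1 after thinning, 10 with the replicate block, 0 to 8 with a library left out, 8 with GC content and length correction, 12 with that correction and the replicate block, 0 with sgN6AMT1 replicate 1 alone, 0 at 0.01 and 10 at 0.1. The summed level of the members was 0.965 of that in sgCtrl by total counts and 0.980 by TMM. Without sgN6AMT1 replicate 1 the 5 members called were not the same 5: E2F8, TYMS and UHRF1 were lower, and MCM5 and TK1 higher. The lowest count of a leave-out is without sgCtrl replicate 1 for the members and without sgCtrl replicate 2 for all genes. A fit with fewer libraries has fewer degrees of freedom, and otherwise the cause was not tested.

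The replicate numbers were not taken to pair the libraries, since the deviations of same-numbered libraries correlated at -0.000522, 0.0827 and 0.190, not all over 0.1. Of the 3 sgN6AMT1 libraries, replicates 2 and 3 correlated best with their own number and replicate 1 did not, so something shared by number is not excluded. With the replicate block 7 members (CHAF1A and RPA1 beside the 5) and 1195 genes were called. The libraries with 742470 to 959319 counts limit what can be seen of members such as E2F1, GINS3, GINS4 and E2F2.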

Other observations

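Genes of mitosis, a later step of the same cycle, were read from a list of 22, of which 21 were tested. Of these 4 were called lower and 0 higher with edgeR, 7 had an unadjusted p under 0.05, and the median log2 fold change was -0.01. These are 19.0% called lower and 33.3% at an unadjusted p under 0.05, against 4.76% and 26.2% of all genes tested, on a list of few genes and with no test of the list. HMMR, a spindle protein, had 172, 233 and 238 normalized cpm in sgCtrl and 132, 126 and 101 in sgN6AMT1 (log2 fold change -0.85, adjusted p = 0.00497). MKI67, the proliferation antigen that coats mitotic chromosomes, had 191, 213 and 163 cpm against 128, 113 and 113 cpm (log2 fold change -0.69, adjusted p = 0.0118). CENPE and CENPF, proteins of the kinetochore, fell by 0.88 and 0.51 on the log2 scale (adjusted p = 0.0203 and 0.0326). HMMR was called with each library left out in turn. MKI67 was not without sgCtrl replicate 2 (adjusted p = 0.0940) or sgN6AMT1 replicate 2 (0.0534), CENPE not without sgCtrl replicate 2 (0.141), and CENPF was called in 1 of 6 such fits, that without sgCtrl replicate 3. CDK1, the mitotic kinase, had a log2 fold change of 0.41 (adjusted p = 0.0745) and CCNB1, its cyclin, one of 0.25 (adjusted p = 0.371).

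Of the 10 K562 markers, HBG1 and HBG2, the near-identical fetal globin genes, between which shared reads were not told apart here, rose by 1.04 and 1.05 on the log2 scale (adjusted p = 0.0149 and 0.0144 with edgeR). LMO2, a cofactor of GATA1, fell by 1.01 (adjusted p = 0.0239). The other 7 markers were not called. Over the 10 the median log2 fold change was -0.14, with 4 above 0 and 6 below. Of all genes tested, 9.85% were called. HBG1 and HBG2 were not called without sgCtrl replicate 1 (adjusted p = 0.0756 and 0.0743) or 2 (0.111 and 0.110), nor with DESeq2 (0.117 and 0.116). LMO2 was not called without sgCtrl replicate 1 (0.0675), sgCtrl replicate 3 (0.102) or sgN6AMT1 replicate 2 (0.0519).

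The lower level of chromosome 21 genes in sgN6AMT1 held on both sides of N6AMT1. The 10 tested genes before it had a median log2 fold change of -0.29 with 7 below 0, and the 73 beyond it -0.25 with 57 below 0. The 11 genes called lower were U2AF1, SCAF4, BTG3, MRPS6, PSMG1, C21orf33, CHAF1B, TTC3, PCNT, URB1 and DONSON, chosen for naming after their values were seen. Among them U2AF1, a splicing factor, had the most negative log2 fold change, -1.44 (adjusted p = 0.00121 with edgeR). The cause was not tested.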
